A study of Mus musculus with 4 samples.

Results

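The 39 genes described here encode components of the bone morphogenetic protein (BMP) and transforming growth factor beta (TGF-beta) pathways. They were taken by gene name from a deposited table of 21738 genes, and all 39 have a row in it: 7 ligands, 3 factors of ligand processing and latency, 10 receptors, 8 Smads, 2 ubiquitin ligases, 2 nuclear corepressors, 2 secreted antagonists, 1 decoy receptor and 4 Id genes. The RNA came from neurospheres, free-floating spheres in which neural stem cells and their progeny divide, grown for 7 days from the ventricular-subventricular zone (V-SVZ) of wild-type CD1 mice aged P7 or P8. Lysates were immunoprecipitated with an antibody against 4E-T, a P-body protein that binds the cap-binding factor eIF4E (2 libraries, numbered Exp1 and Exp2 in the labels), or with an anti-IgG control antibody (2 libraries with the same numbers). All 4 libraries share the strain, genotype, age and culture time, and the antibody is the only labelled difference. The labels do not say whether Exp1 and Exp2 were separate cultures or animals, so p-values here reflect only how far these libraries differ from each other, and that spread may be technical.

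BMP and TGF-beta ligands are secreted dimers that bring together type I and type II serine/threonine kinase receptors. The activated type I receptor phosphorylates receptor-activated Smads (Smad1, Smad5 and Smad9 for BMPs, Smad2 and Smad3 for TGF-beta and activin), which join Smad4 and act on transcription in the nucleus. Inhibitory Smads, Smurf ubiquitin ligases, the corepressors Ski and Skil, the secreted antagonists Noggin and Chordin and the decoy receptor Bambi dampen the signal. In the V-SVZ, BMPs from stem cells and Noggin from ependymal cells are known to set the balance between glial and neuronal fates, and the Id genes are direct BMP targets that hold back neurogenic basic helix-loop-helix factors.

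The values are FPKM as deposited, scaled per library. They show a transcript's level relative to the other transcripts of its library, and not how much RNA an antibody recovered. In such a relative level, fewer cells that hold a transcript and fewer copies per cell cannot be told apart. The libraries held 72769612 to 85828188 reads over the listed genes. Neural stem and precursor markers were present, with Sox2 at 103 and 109.5 FPKM for IgG against 167 and 159.7 with 4E-T. Of 10 such markers, 5 (Nes, Sox2, Vim, Prom1 and Egfr) were called higher and 0 lower with 4E-T. Over all tested genes 34.3% were called higher and 15.2% lower. Both 4E-T libraries lay above both IgG libraries for 7 of the 10 and below for 1 (Msi1), and the groups overlapped for 2 (Fabp7 and Slc1a3). Of all tested genes, 50.5% lay above and 25.2% below in the same way. The markers of oligodendrocyte precursors Olig1 and Olig2 were also high, from 289 to 1112 FPKM. Listed microglia and blood markers summed to at most 0.286 FPKM and endothelial markers to at most 1.02 FPKM in any library. The 6 mural and fibroblast markers summed to 16.9 to 19.6 FPKM with IgG and 19.5 to 25.4 with 4E-T, nearly all of it Acta2, which was not called. Of the other 5, all under 1 FPKM, limma-voom called Pdgfrb and Col1a1 higher and Rgs5 and Dcn lower, and Dcn was listed at 0 in both 4E-T libraries. The astrocyte markers summed to 301 to 335 FPKM with IgG and 638 to 805 with 4E-T, nearly all of it Aldh1l1, which was called higher. The other 3 astrocyte markers had lower values in both 4E-T libraries, and of them Aqp4 was called lower, Gfap was not called and S100b was under 1 FPKM. The neural precursor markers summed to 3266 to 3401 with IgG and 3202 to 4519 with 4E-T. Ependymal markers summed to 8.42 to 11.5 FPKM with IgG and to 9.20 in both 4E-T libraries. The part of cell makeup in the differences was not tested. Eif4enif1, which encodes 4E-T, had 31.3 and 29.7 FPKM for IgG against 32.5 and 35.3 for 4E-T.

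With 4E-T, the transcripts for ligand processing and latency, the type II activin receptors, 4 of 7 tested negative regulators and the target genes Id1 and Id4 were higher. The ligand transcript Bmp7, the target gene Id2 and, by a small margin, the receptor transcript Bmpr1a were lower. The target gene Id3 was not called, and 4 of 5 tested signal-transducing Smads did not pass the test. A gene was tested where it had at least 1 FPKM in at least 2 of the 4 libraries, and called where limma on log2(FPKM + 1), fitted over 12585 genes, gave a Benjamini-Hochberg adjusted p under 0.05. Of 31 tested members, 13 were called higher (41.9%) and 3 lower (9.68%) with 4E-T. Over all tested genes 49.5% were called, 34.3% higher and 15.2% lower, so the members' shares lay near the background. The median log2 difference (4E-T minus IgG) was 0.29 over the tested members and 0.16 over all tested genes. Differences and folds are on the log2(FPKM + 1) scale, on which the change of a low transcript appears too small. Without IgG library 2, the members called lower numbered 1 in place of 3. Of the members tested, 30 had at least 1 FPKM in all 4 libraries, and Smad7 in 3 of them.

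By role, none of the 3 tested ligands was called higher and 1 was called lower, with a median log2 difference of -0.15. All 3 processing and latency genes were called higher (median 0.60). Of 9 tested receptors 3 were called higher and 1 lower (median -0.02). Of 5 tested receptor-activated and common Smads 1 was called higher and 0 lower (median 0.20). The 7 tested negative regulators, taken as the inhibitory Smads, ligases, corepressors, antagonists and decoy receptor, had 4 called higher and 0 lower (median 0.40). Of the 4 Id genes 2 were called higher and 1 lower. These are counts within small groups, beside 34.3% higher and 15.2% lower over all tested genes. Differences between the groups were not tested.

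**Figure D1:**
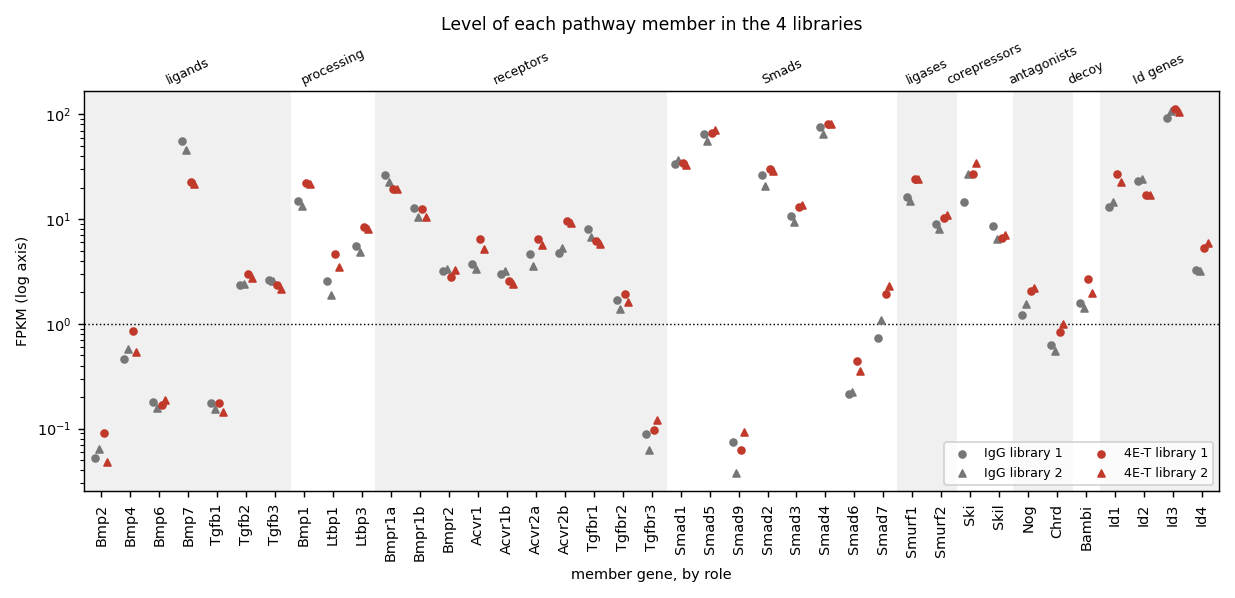
Level of each of the 39 members (x axis, ordered by role) as FPKM on a log axis, with 1 point for each library (grey for IgG, red for 4E-T, circles for library 1 and triangles for library 2). The dotted line marks 1 FPKM, and Bmp7 has both red points below both grey ones while Acvr2b, Smad7, Id1 and Id4 have both red points above.

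In both 4E-T libraries, 19 of the 31 tested members (61.3%) lay above both IgG libraries, and 6 (19.4%) lay below both. The same was true of 50.5% and 25.2% of all tested genes. The other 6 members overlapped, among them Id3, Smad1 and Bmpr1b. The plot of levels shows how widely the members differed in level per length, from Id3 at 100.1 ± 10.02 FPKM (SD, n = 2, IgG) and Smad4 at 70.2 ± 7.94 down to Smad9 and Bmp2, both under 0.1 FPKM in every library.

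Bmp7 was the one BMP ligand transcript at an appreciable level, and it was lower with 4E-T than with IgG. Bmp7 (ENSMUSG00000008999.7; chromosome 2, 172868012 to 172940321, RefSeq gene span in GRCm38, as for the other positions given) had 55.0 and 45.9 FPKM in the IgG libraries and 22.7 and 21.5 FPKM in the 4E-T libraries. Both 4E-T libraries were below both IgG libraries, and the transcript was 2.22-fold higher with IgG (log2 difference -1.15 ± 0.14, SE, n = 2 per antibody; limma adjusted p = 2.96e-07). On the log2(FPKM + 1) scale it was the one member that differed by at least 2-fold, a size that Smad7 also passed by limma-voom on the recovered reads and in the authors' deposited table, and only 1.3% of tested genes had a lower difference. The log2 difference was -1.24 within Exp1 and -1.06 within Exp2. Summed over the 4 BMP ligands the level was 55.7 and 46.7 FPKM for IgG against 23.8 and 22.3 with 4E-T, and Bmp7 made up 98.8% and 98.3% of that sum for IgG against 95.3% and 96.5% for 4E-T. The TGF-beta ligands were lower in level and were not called. Tgfb2 had 2.37 and 2.38 FPKM in the IgG libraries and 2.99 and 2.73 FPKM in the 4E-T libraries, with a log2 difference of 0.19 ± 0.13 (95% interval -0.07 to 0.46). Tgfb3 had 2.61 and 2.57 FPKM in the IgG libraries and 2.36 and 2.14 FPKM in the 4E-T libraries, with a log2 difference of -0.15 ± 0.13 (95% interval -0.41 to 0.12). For each of them the antibody groups did not overlap, Tgfb2 being above and Tgfb3 below with 4E-T.

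Bmp2, Bmp4, Bmp6 and Tgfb1 were under 1 FPKM in every library and were not tested on that scale. Bmp4, a ligand of the dorsal forebrain and the V-SVZ, had 0.460 and 0.575 FPKM in the IgG libraries and 0.862 and 0.536 FPKM in the 4E-T libraries, which came from 87 and 105 reads for IgG against 133 and 78 for 4E-T. The recovered values for Bmp6 were 59 and 50 reads for IgG against 45 and 48 for 4E-T. Tgfb1 had 41 and 35 reads for IgG against 34 and 26 for 4E-T, and Bmp2 had 17 and 20 reads for IgG against 24 and 12 for 4E-T. The groups overlapped for each of these 4 ligands. At this depth no difference was detectable for them, and with limma-voom on the recovered reads the log2 difference of Bmp4 was 0.37 ± 0.29 (adjusted p = 0.324).

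The processing and latency genes were higher with 4E-T in each case. Bmp1 encodes not a BMP ligand but a metalloprotease that cleaves procollagens and the BMP antagonist Chordin. Bmp1 (ENSMUSG00000022098.10; chromosome 14, 70474555 to 70520716) had 14.8 and 13.3 FPKM in the IgG libraries and 21.9 and 21.5 FPKM in the 4E-T libraries, so that both 4E-T libraries lay above both IgG libraries. It was 1.51-fold higher in the 4E-T libraries (log2 difference 0.60 ± 0.14; limma adjusted p = 0.000755). Ltbp1 and Ltbp3 encode latent TGF-beta binding proteins, which tether the inactive ligand to the extracellular matrix. Ltbp1 had 2.54 and 1.88 FPKM in the IgG libraries and 4.64 and 3.52 FPKM in the 4E-T libraries, with a log2 difference of 0.66 ± 0.14. Ltbp3 had 5.49 and 4.88 FPKM in the IgG libraries and 8.31 and 8.0 FPKM in the 4E-T libraries, with a log2 difference of 0.57 ± 0.13. The lowest 4E-T value was above the highest IgG value for both. Leaving out IgG library 2 ended the Ltbp1 call (limma adjusted p = 0.0536), and the adjusted p over the Ltbp1 alternatives ranged from 3.87e-06 to 0.0536. Of the 39 members, 18 overlap another gene on the genome, among them Acvr1 with Upp2, Acvr2a with Orc4, and Bmp7, Smad7 and Id4 with long noncoding RNA genes. Since the library kit does not mark strand, reads in such an overlap could not be assigned to a strand.

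Among the BMP receptors, the type I receptor transcripts went different ways. Acvr1 (also called Alk2), a type I receptor for BMP6 and BMP7, had 3.75 and 3.34 FPKM in the IgG libraries and 6.40 and 5.13 FPKM in the 4E-T libraries. It was 1.48-fold higher in the 4E-T libraries (log2 difference 0.57 ± 0.14; limma adjusted p = 0.000998), with no overlap of the groups. Bmpr1a (Alk3), the type I receptor most abundant here, had 26.6 and 22.6 FPKM in the IgG libraries and 19.2 and 19.3 FPKM in the 4E-T libraries. It was called lower by a small margin (log2 difference -0.33 ± 0.14, limma adjusted p = 0.0499), and the call was lost without any 1 of the 4 libraries (adjusted p from 0.0643, without IgG library 2, to 0.326, without IgG library 1, and 0.123 and 0.106 when a 4E-T library was dropped) and with no filter on low values (0.0928). The adjusted p over its alternatives went down to 0.00133. Bmpr1b (Alk6) had 12.6 and 10.5 FPKM in the IgG libraries and 12.4 and 10.4 FPKM in the 4E-T libraries, with a 95% interval of the log2 difference from -0.31 to 0.27. The type II receptor Bmpr2, whose transcript is the longest of the members by the length behind its FPKM (12899 bp), had 3.21 and 3.32 FPKM in the IgG libraries and 2.80 and 3.30 FPKM in the 4E-T libraries, with an interval from -0.35 to 0.19. The groups overlapped for Bmpr1b and Bmpr2, and neither was called. Corrected for gene length, Bmpr2 was called lower (log2 difference -0.34, limma adjusted p = 0.0284).

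The type II receptors for activins were higher with 4E-T, and the type I activin receptor was not. Acvr2b (ENSMUSG00000061393.14; chromosome 9, 119401583 to 119442148) had 4.74 and 5.27 FPKM in the IgG libraries and 9.57 and 9.13 FPKM in the 4E-T libraries. This was the highest difference of the tested members on the log2(FPKM + 1) scale, 1.73-fold (log2 difference 0.79 ± 0.13; limma adjusted p = 2.25e-05), and the groups were well apart. Smad7 ranked above it by limma-voom (1.195 against 0.86), with a pseudocount of 0.1 and in the authors' deposited table. Acvr2a had 4.69 and 3.59 FPKM in the IgG libraries and 6.42 and 5.65 FPKM in the 4E-T libraries, also without overlap (log2 difference 0.46 ± 0.14; limma adjusted p = 0.00687). Its call by limma ended when IgG library 2 was dropped (adjusted p = 0.169) and when the first 4E-T library was (0.0596), and under scaling by median ratios (0.0650) or by quantiles (0.0515), over a range down to 0.00334. Acvr1b (Alk4), the type I partner for activin, had 3.01 and 3.19 FPKM in the IgG libraries and 2.59 and 2.42 FPKM in the 4E-T libraries. Both 4E-T values were below both IgG values, but the difference of -0.23 ± 0.13 was not called (limma adjusted p = 0.148). With median ratio scaling it was called lower (-0.36, limma adjusted p = 0.0237).

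No TGF-beta receptor was called. Tgfbr1 (Alk5), the type I receptor, had 8.08 and 6.70 FPKM in the IgG libraries and 6.14 and 5.73 FPKM in the 4E-T libraries, so that both 4E-T values were below both IgG values (log2 difference -0.27 ± 0.14; limma adjusted p = 0.097). It was called lower after scaling by median ratios (-0.43) or quantiles (-0.44), after the gene length correction (-0.38) and by limma-voom on recovered reads (-0.35). The type II receptor Tgfbr2 had 1.70 and 1.39 FPKM in the IgG libraries and 1.93 and 1.61 FPKM in the 4E-T libraries with overlapping groups and a log2 difference of 0.13 ± 0.13 (95% interval -0.14 to 0.40), which turned to -0.060 with the length correction. Tgfbr3, the co-receptor betaglycan, was under 1 FPKM in every library, with 50 and 34 reads for IgG against 44 and 52 for 4E-T. In FPKM it had 0.0897 and 0.0631 in the IgG libraries and 0.0967 and 0.121 in the 4E-T libraries, without overlap. limma-voom did not call it (0.47 ± 0.38; adjusted p = 0.333).

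**Figure D2:**
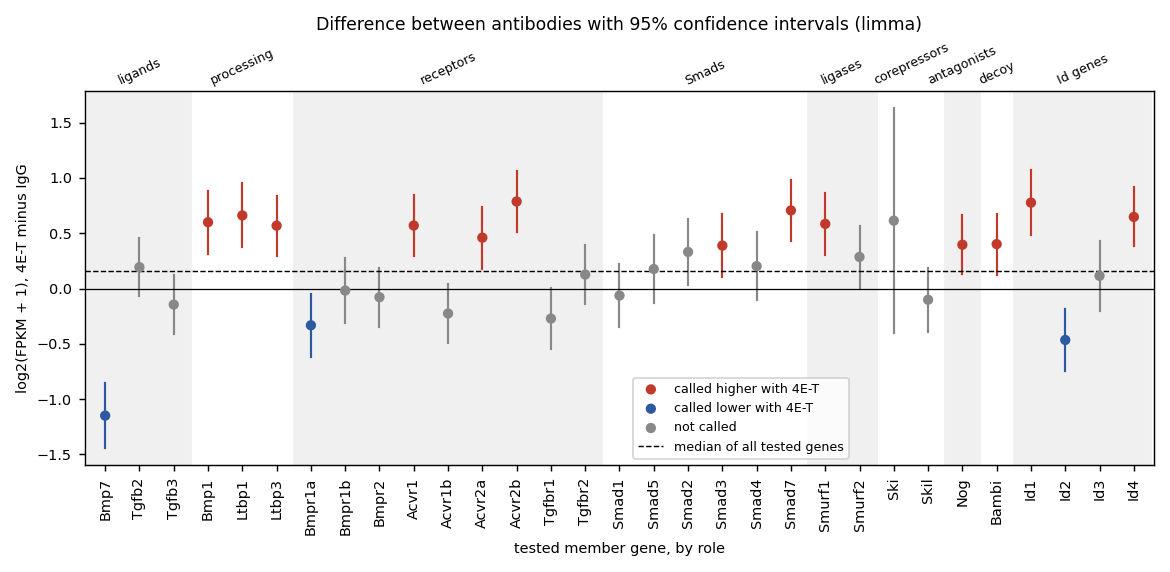
Difference between antibodies for the 31 tested members (x axis, ordered by role) on the log2(FPKM + 1) scale, 4E-T minus IgG. Points are limma estimates from 2 libraries per antibody, lines are 95% confidence intervals, colours give the call, and the dashed line is the median of all tested genes (0.16). Bmp7 lies far below the rest, and Ski has the widest interval.

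Signal-transducing Smad transcripts were among the most abundant members, and 1 of the 5 tested, Smad3, was called. Smad1, a BMP-activated Smad, had 33.6 and 36.7 FPKM in the IgG libraries and 34.6 and 32.5 FPKM in the 4E-T libraries, with overlapping groups and a log2 difference of -0.06 ± 0.14 (95% interval -0.35 to 0.22). Smad5, the other abundant one, had 64.9 and 55.4 FPKM in the IgG libraries and 65.8 and 70.0 FPKM in the 4E-T libraries and a difference of 0.18 ± 0.15 (interval -0.13 to 0.48). Its direction turned under scaling by median ratios (-0.0091) or by quantiles (-0.040). Smad9 had under 0.1 FPKM in every library, from 37 and 18 reads for IgG against 25 and 35 for 4E-T, and the groups overlapped.

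The common partner Smad4 had 75.8 and 64.6 FPKM in the IgG libraries and 80.9 and 80.5 FPKM in the 4E-T libraries, with both 4E-T values above both IgG values but no call (log2 difference 0.20 ± 0.15, limma adjusted p = 0.271), and its sign turned with quantile normalisation (-0.00088). Smad2, activated by TGF-beta and activin receptors, had 26.4 and 20.7 FPKM in the IgG libraries and 30.3 and 29.0 FPKM in the 4E-T libraries and narrowly missed the threshold (log2 difference 0.33 ± 0.14; limma adjusted p = 0.058). It was called with the gene length correction (0.0499) and without IgG library 1 (0.0447). Smad3 had 10.6 and 9.31 FPKM in the IgG libraries and 13.1 and 13.6 FPKM in the 4E-T libraries and was called higher (log2 difference 0.39 ± 0.14; limma adjusted p = 0.0204). Scaling by median ratios (adjusted p = 0.141) or by quantiles (0.131) ended the Smad3 call by limma. Dropping IgG library 2 (0.173) or either of the 4E-T libraries (0.0569 for the first and 0.0825 for the second) ended it too, over a range down to 0.0087. For both Smad2 and Smad3 the lowest 4E-T value was above the highest IgG value.

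Of the 7 tested transcripts of negative regulators, 4 were called higher and 0 lower, beside 34.3% and 15.2% of all tested genes. Smad7, an inhibitory Smad that brings Smurf ligases to type I receptors, had 0.732 and 1.09 FPKM in the IgG libraries and 1.93 and 2.29 FPKM in the 4E-T libraries. Both 4E-T values were above both IgG values (log2 difference 0.71 ± 0.13; limma adjusted p = 9.05e-05). Because it is low, the scale understates its change, and on the recovered reads, 287 and 411 reads for IgG against 616 and 689 for 4E-T, limma-voom gave 1.195 ± 0.19 (adjusted p = 3.09e-06). The BMP-selective inhibitory Smad, Smad6, was under 1 FPKM in every library, with 58 and 59 reads for IgG against 98 and 75 for 4E-T. It had 0.213 and 0.224 FPKM in the IgG libraries and 0.441 and 0.358 FPKM in the 4E-T libraries, without overlap, and limma-voom called it higher (0.82 ± 0.32; adjusted p = 0.0353), while the authors' deposited table did not (adjusted p = 0.0803).

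Smurf1 and Smurf2 encode ubiquitin ligases that mark Smads and receptors for degradation. Smurf1 (ENSMUSG00000038780.14; chromosome 5, 144876495 to 144965899) had 16.3 and 15.0 FPKM in the IgG libraries and 23.9 and 24.0 FPKM in the 4E-T libraries, with no overlap of the groups (log2 difference 0.58 ± 0.14; limma adjusted p = 0.000928). Smurf2 had 8.94 and 8.10 FPKM in the IgG libraries and 10.3 and 10.9 FPKM in the 4E-T libraries, also without overlap, and was not called (log2 difference 0.29 ± 0.14; limma adjusted p = 0.0811).

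The nuclear corepressors Ski and Skil were not called. Ski had 14.4 and 26.6 FPKM in the IgG libraries and 27.0 and 34.6 FPKM in the 4E-T libraries, and its IgG libraries lay so far apart that the log2 difference of 0.61 ± 0.35 had a 95% interval from -0.41 to 1.63, although both 4E-T values were above both IgG values. Dropping IgG library 2 gave 1.03 and dropping either 4E-T library gave 0.79 and 0.44, each called higher, whereas dropping IgG library 1 gave 0.19 and no call. Skil had 8.57 and 6.39 FPKM in the IgG libraries and 6.67 and 7.02 FPKM in the 4E-T libraries with overlapping groups (log2 difference -0.10 ± 0.14), and its sign turned without IgG library 1 (0.085).

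Nog and Chrd encode Noggin and Chordin, which bind BMPs outside the cell and keep them from their receptors. Nog had 1.22 and 1.55 FPKM in the IgG libraries and 2.04 and 2.21 FPKM in the 4E-T libraries, without overlap, and was called higher (log2 difference 0.40 ± 0.13; limma adjusted p = 0.0133). Dropping IgG library 1 (adjusted p = 0.18) or scaling by median ratios (0.10) ended its call by limma, over a range down to 0.00805. Chrd was just under the FPKM minimum, with 0.629 and 0.546 FPKM in the IgG libraries and 0.829 and 0.995 FPKM in the 4E-T libraries, from 254 and 213 reads for IgG against 273 and 309 for 4E-T. limma-voom called it higher (0.59 ± 0.21; adjusted p = 0.0265), as did the authors' deposited table (adjusted p = 0.0333). Chrd overlaps Thpo on the genome. Bambi, a receptor-like protein without a kinase domain, had 1.60 and 1.41 FPKM in the IgG libraries and 2.69 and 1.95 FPKM in the 4E-T libraries and was called higher (log2 difference 0.40 ± 0.14; limma adjusted p = 0.0151). The Bambi call was lost in 6 of 11 alternatives, with a limma adjusted p of 0.0781 and 0.174 when the first or the second IgG library was dropped and of 0.21 when 4E-T library 1 was, over a range down to 0.00135. For Bambi too the groups did not overlap.

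The 4 Id genes, which encode helix-loop-helix proteins without a DNA-binding domain, did not share a direction between the antibodies. Id1 (ENSMUSG00000042745.9; chromosome 2, 152736251 to 152737410) had 13.1 and 14.6 FPKM in the IgG libraries and 26.7 and 22.4 FPKM in the 4E-T libraries. It was 1.71-fold higher in the 4E-T libraries (log2 difference 0.78 ± 0.14; limma adjusted p = 5.86e-05), with no overlap. Id4 (chromosome 13, 48261116 to 48266028) had 3.30 and 3.20 FPKM in the IgG libraries and 5.35 and 5.97 FPKM in the 4E-T libraries and was 1.57-fold higher (log2 difference 0.65 ± 0.13; limma adjusted p = 0.000185). Id2 (chromosome 12, 25093799 to 25096092) had 23.0 and 24.2 FPKM in the IgG libraries and 16.8 and 16.9 FPKM in the 4E-T libraries, so that both 4E-T values were below both IgG values. It was 1.38-fold higher with IgG (log2 difference -0.47 ± 0.14; limma adjusted p = 0.0062), which was no call when IgG library 2 was dropped (adjusted p = 0.0696, over a range down to 0.000229). Id3 was the most abundant member and overlapped between the antibodies, with 93.0 and 107 FPKM in the IgG libraries and 112 and 105 FPKM in the 4E-T libraries (log2 difference 0.11 ± 0.15; 95% interval -0.20 to 0.43). Its direction turned under scaling by median ratios (-0.072) or by quantiles (-0.056).

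As shares of the summed FPKM of the 4 Id genes, which no scaling of a library can change, Id1 made up 9.89% and 9.81% for IgG against 16.6% and 14.9% for 4E-T. Id2 made up 17.4% and 16.3% for IgG against 10.5% and 11.3% for 4E-T. Id3 lay between 69.6% and 71.8% in all 4 libraries, and Id4 made up 2.49% and 2.14% for IgG against 3.33% and 3.99% for 4E-T. Id2 therefore stood above Id1 in both IgG libraries and below it in both 4E-T libraries.

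Ratios of 2 members within a library are likewise free of its scaling. The pairs were chosen after the values were seen, and with 2 libraries a side an exact permutation test could not pass the threshold, so the ratios are given as descriptions. Id1 over Id2 was 0.568 and 0.604 for IgG against 1.59 and 1.33 with 4E-T. Bmp1 over Bmp7 was 0.269 and 0.289 for IgG against 0.966 and 1.0 with 4E-T, so that the protease transcript, well below the ligand transcript with IgG, was level with it with 4E-T. Among the receptors, Acvr2b over Acvr1b was 1.57 and 1.65 for IgG against 3.69 and 3.77 with 4E-T. Acvr1 over Bmpr1a was 0.141 and 0.148 for IgG against 0.333 and 0.266 with 4E-T, and Acvr2b over Bmpr2 was 1.47 and 1.59 for IgG against 3.41 and 2.77 with 4E-T. In each of these 5 pairs the ratio was higher in both 4E-T libraries. Smurf1 over Smurf2 differed less, at 1.83 and 1.85 for IgG against 2.32 and 2.20 with 4E-T. Smad5 over Smad1 overlapped, at 1.93 and 1.51 for IgG against 1.90 and 2.15 with 4E-T, and so did Ski over Skil, at 1.68 and 4.17 for IgG against 4.05 and 4.93 with 4E-T.

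**Figure D3:**
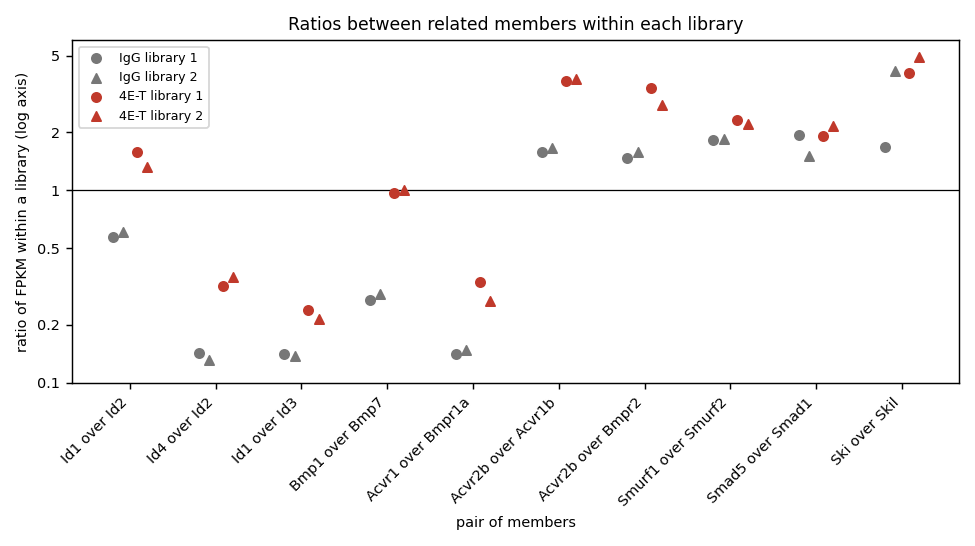
Ratio of FPKM between 2 related members within each library (log axis), with grey points for IgG, red points for 4E-T, circles for library 1 and triangles for library 2. For Id1 over Id2 the grey points lie below 1 and the red points above 1, while for Smad5 over Smad1 and Ski over Skil the colours overlap.

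Of the 16 called members, 9 kept their call and direction under all 11 alternatives, 8 of them higher (Bmp1, Ltbp3, Acvr1, Acvr2b, Smad7, Smurf1, Id1 and Id4) and 1 lower (Bmp7). For Bmp7 the log2 difference ranged from -1.34 to -1.02, for Acvr2b from 0.62 to 0.89, for Id1 from 0.58 to 0.90, for Id4 from 0.50 to 0.78 and for Smurf1 from 0.38 to 0.64. The plot of alternatives shows that the calls that were lost were those of the smaller differences, apart from Ltbp1. Median ratio scaling, which moved the median of all tested genes from 0.16 to -0.0025, left 9 members called higher and 5 lower. The calls over all 12585 tested genes moved as well, from 4318 higher and 1912 lower to 2870 higher and 2969 lower.

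**Figure D4:**
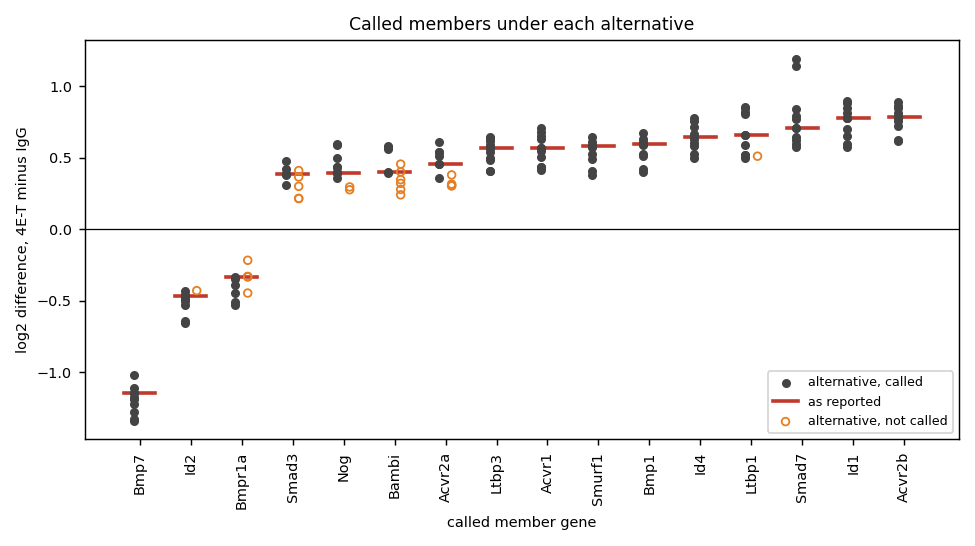
Log2 difference of each of the 16 called members (x axis, ordered by difference) as reported (red bar) and under each of 11 alternatives, filled where the call was kept and open where it was not. Bmp7, Acvr2b, Id1, Smad7 and Id4 have no open points, and Bambi has the most.

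The authors' deposited table, made with DESeq2 per the submitters' processing notes, had 14 members higher and 3 lower at an adjusted p under 0.05, against 20.0% and 11.9% of its 21738 genes. In the authors' deposited table Bmp7 had a log2 fold change of -1.19 ± 0.15 (SE) and Id2 of -0.49 ± 0.14. Smad7 had 1.21 ± 0.23 in the authors' deposited table and was its highest member. limma-voom on the recovered reads of all 39 members called 15 higher and 4 lower, against 19.8% and 18.4% of all listed genes. The listed genes include 9153 that failed the FPKM minimum of the main test, whereas 31 of the 39 members passed it. Neither background in this paragraph is therefore a like base for the members.

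Spearman's rho between the log2 difference and the gene length behind the FPKM was -0.129 over the 31 tested members and 0.244 over all tested genes, given as a description across genes of the same libraries. Members called higher had a median length of 5040 bp and those called lower of 3670 bp, against 3791 and 2750 bp over all genes called higher and lower. Id1, one of the higher ones, has a length of 1160 bp.

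Of a wider list of pathway genes, chosen with earlier results of these data known, 100 had a row and 72 were tested, of which 34 were higher and 12 lower with 4E-T (median log2 difference 0.31). Over all tested genes 34.3% were higher and 15.2% lower, with a median of 0.16, and the counts by role below stand against these shares. Values in brackets are log2 differences ± SE, and those named passed the test by limma. Of 4 other ligands tested, the stress-induced Gdf15 (0.88 ± 0.15) and the activin subunit Inhbb (0.67 ± 0.13) were higher, and the inhibin subunit Inha (-0.78 ± 0.13) and Gdf11 (-0.41 ± 0.13) lower. The RGM receptor Neo1 (0.81 ± 0.15) and the BMP co-receptor Rgmb (0.49 ± 0.14) were the higher ones of 3 other receptors. Of 8 other secreted antagonists, Bmper (0.55 ± 0.14) was higher, and the Chordin partner Twsg1 (-0.53 ± 0.14) and the Chordin-like Chrdl1 (-0.48 ± 0.13) were lower, so that antagonist transcripts went both ways. Of 8 other processing and latency genes 5 were higher, led by the microfibril gene Fbn2 (0.998 ± 0.14) and the protease gene Htra1 (0.78 ± 0.15), and the TGF-beta-activating integrin subunit Itgb8 was lower (-0.40 ± 0.14).

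Inside the cell, receptor adaptors and non-Smad kinases had 4 of 12 higher, with Tab2 (0.48 ± 0.14) and Zfyve9 (0.44 ± 0.13), the Smad anchor SARA, named by the rule, and 3 lower, with Xiap (-0.64 ± 0.14) and the TGF-beta-activated kinase gene Map3k7 (-0.58 ± 0.14). Of 15 other ubiquitin ligase, deubiquitinase and phosphatase genes 9 were higher, led by Nedd4l (0.93 ± 0.14), a ligase for Smad2 and Smad3, and Usp4 (0.89 ± 0.15), and 2 were lower, Ctdsp1 (-0.46 ± 0.13) and Wwp1 (-0.32 ± 0.14). Nuclear partners had 8 of 15 higher, with the chromatin regulators Smarca4 (1.77 ± 0.16) and Crebbp (1.68 ± 0.14) ahead, and 2 lower, the E protein Tcf4 (-0.57 ± 0.15), a partner that Id proteins sequester, and the Smad-binding repressor Zeb1 (-0.38 ± 0.15). Of 7 other target genes 3 were higher, among them Junb (1.18 ± 0.14) and Cyr61 (0.96 ± 0.14), and 0 lower. The lower calls of this list were fewer without IgG library 1 (5) or IgG library 2 (6).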

How the data were processed

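RNA bound by an anti-4E-T or an anti-IgG antibody was measured in 2 libraries each. Per the labels' protocols, RNA was immunoprecipitated with a Magna RIP kit, and libraries were made with SMART-Seq v4 and Nextera XT, which do not mark strand. The submitters' processing notes name STAR 2.6.0c and the build mm10, HTSeq 0.6.1p2 and, for the comparison, DESeq2 1.26.0, with Trim Galore 0.5.0 and FastQC 0.11.5. The deposited FPKM values and the baseMean signal per gene were made by the authors and were used as given. The authors' log2 fold change and p-value columns were used only where named as theirs.

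Whole reads were recovered from the FPKM and baseMean values of the deposited table, with 100% of 86952 values within 0.01 read of a whole number. These reads showed that the FPKM are scaled by size factors and not by library totals. The main test was limma 3.58.1 (R 4.3.3), with trended and robust variances and antibody as the only term, on log2(FPKM + 1). It covered 12585 genes with at least 1 FPKM in at least 2 libraries and left out 9153. p-values were adjusted by Benjamini-Hochberg, and genes under 0.05 were called. Tested on simulated data of 12585 genes, the fit called 60% of genes changed 1.5-fold, 100% of those changed 2-fold and 0.121% of unchanged genes. The changed genes were a small part of the whole, whereas 49.5% of genes were called in the data. They were drawn only from genes at higher levels, and their folds were set on the log2(FPKM + 1) scale. These rates therefore do not cover low members such as Smad7, Nog and Bambi. All 39 members are named, and of other pathway genes up to 2 per role and direction with the largest difference among those called. The members and lists were chosen with earlier results of these data known. Gene spans came from RefSeq (GRCm38.p6), matched by symbol, and no transcript sequence was used. Within each antibody group the libraries differed by more than sampling noise (chi-square per degree of freedom 31.2 for IgG and 44.4 for 4E-T), so neither pair was taken as a single library deposited again, which does not show that the libraries are independent. The input RNA was not analysed here. Alternatives were a pseudocount of 0.1, no filter, median ratio scaling, quantile normalisation, a gene length correction, a replicate block, each library left out in turn, and limma-voom on the recovered reads.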

Additional observations from a re-analysis of the deposited data

How the results depend on the processing

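With 2 libraries per antibody the spread rests on 2 residual degrees of freedom and on the variance shared across genes, and leaving out 1 library leaves an antibody with a lone sample that is assumed to vary like the other group. Members called lower numbered 3 as reported, 5 with median ratio scaling, 5 with the gene length correction and 1 to 2 with a library left out. Other pathway genes called lower numbered 5 to 9 with a library left out. Over all genes, 2870 were called higher and 2969 lower with median ratio scaling, 4005 were lower with limma-voom on the recovered reads, and with a library left out 2389 to 4259 were higher and 1101 to 1755 lower. Directions that turned belonged to members that were not called: Smad5 (-0.0091 with median ratio scaling, -0.040 with quantile normalisation), Id3 (-0.072 and -0.056 under the same settings), Smad4 (-0.00088 with quantile normalisation) and Tgfbr2 (-0.060 with the length correction). With a library left out, the log2 difference ranged from -0.14 to 0.10 for Bmpr1b, -0.17 to 0.010 for Bmpr2 and -0.29 to 0.085 for Skil. The cause of these changes was not tested. The labels do not say whether the experiment numbers pair the libraries, and the main fit took them as unpaired. The deviations of same-numbered libraries correlated at 0.064 across 12585 genes. With 2 libraries per antibody this cannot show whether they shared a culture or day. With the replicate block, 16 members were higher and 3 lower, with Smad2, Smurf2 and Ski added, against 4745 and 2099 of all genes. Members under 1 FPKM had 12 to 309 reads in a library, which limits what can be detected for them.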
